A study of Mus musculus with 18 samples.

Results

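The 5 genes described here are 4 galectins and a galectin ligand: *Lgals1*, *Lgals3*, *Lgals8* and *Lgals9*, which encode galectins-1, -3, -8 and -9, and *Lgals3bp*, which encodes a secreted glycoprotein that galectins bind and that is not itself a galectin. They were taken by symbol from 18194 genes that had a named probe set on the array. Where a gene had several probe sets, 1 was selected on its mean signal across the 17 arrays with values, so that the choice used mean levels and no difference between groups. All 5 were among the 11897 genes tested.

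Galectins are small lectins that bind β-galactoside sugars on glycoproteins and glycolipids. They are made in the cytosol, leave the cell without a signal peptide, and cross-link receptors at the cell surface. Inside the cell, galectins-3, -8 and -9 also gather on damaged lysosomes and endosomes, where galectin-8 recruits autophagy receptors. In B lymphocytes, galectin-1 takes part in pre-B cell receptor signalling, galectin-9 binds CD45 and dampens antigen receptor signalling, and galectin-3 is known as a marker of activated macrophages and fibroblasts and of several B cell lymphomas.

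The cells came from 3 primary Eµ-myc B-cell lymphomas, numbered 4146, 4936 and 5043, which were explanted from lymph nodes of transgenic mice on a C57/Bl6 background. In these mice the Myc transgene is driven by the immunoglobulin heavy chain enhancer, and *Suv39h1*, which encodes a histone H3 lysine 9 methyltransferase, was deleted in every lymphoma. Every culture, the untreated one included, had been transduced with retroviruses carrying Bcl2, which blocks apoptosis, and a Suv39h1-ERT2 fusion, whose protein becomes active when 4-hydroxytamoxifen (4-OHT) is given. The 6 groups were untreated cells (n = 3), cells given Adriamycin (ADR, doxorubicin, which breaks DNA) for 5 days (n = 3), cells given ADR and 4-OHT for 5 days (n = 3), cells grown for 14 days in drug-free medium after ADR (ADR outgrowth, n = 2), and the big (n = 3) and small (n = 3) cells that were sorted by flow cytometry 14 days after ADR and 4-OHT had been withdrawn. No group received 4-OHT alone, so the fusion protein and 4-OHT itself cannot be told apart, and the big and small cells had no unsorted counterpart. The ages of the mice are not given in the sources used here.

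Signals are log2 values, on which a difference of 1 is a doubling. Of the 17 arrays, 3 stood apart on the first principal component of all genes tested: ADR 5 d of lymphoma 4936 and the big and small outgrowth of lymphoma 5043 lay between 58.47 and 66.81, and the highest of the other arrays was at 5.94. On these 3 arrays *Xist* was 5.70 to 5.99 log2 units above the median of its lymphoma, and on ADR+4-OHT 5 d of lymphoma 4146 it was at -3.49. No probe set carried the symbol *Suv39h1* alone, so the deleted gene could not be used to check the labels. Of 9 B cell markers, 7 to 9 were at or above 4.86, the median of all values, on every array, and their mean ranged from 6.86 to 9.08. In RNA from a whole sample, fewer cells of a type and less RNA per cell cannot be told apart. Each group is 1 sample per lymphoma by its label, and arrays labelled with one lymphoma were compared within it.

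*Lgals3*, whose signal differed most among the 5 genes, lies on chromosome 14 (47373860 to 47386167, GRCm38.p6), and *Lgals9* lies on chromosome 11 (78962979 to 78984924), where *Lgals3bp* also lies (118392747 to 118401959). *Lgals1* is on chromosome 15 (78926725 to 78930465) and *Lgals8* on chromosome 13 (12439402 to 12464977). RefSeq's promoter table of GRCm38.p6 gave a window of 250 bases before a start site for 4 of the 5 genes, and 5 motifs were searched on both strands. The windows of *Lgals3*, *Lgals3bp* and *Lgals9* adjoin the gene intervals given here, while that of *Lgals8* (chr13:12461739-12461988, minus strand) lies inside its interval. The motifs were GGGCGG (a GC box, bound by Sp factors), TGANTCA (an AP-1 element), CACGTG (an E-box, bound by Myc and Max), the core of an interferon-stimulated response element (GAAA, any 2 bases, GAAA) and TTCNNNGAA (a STAT element). They occurred in 32.7%, 6.75%, 6.02%, 2.98% and 7.02% of 32851 promoters. Both windows that held a match are shown, 5′ to 3′ on the strand of the gene, with the match in capitals. The *Lgals3* window is chr14:47373610-47373859 on the plus strand and the *Lgals9* window is chr11:78984925-78985174 on the minus strand.
Lgals3: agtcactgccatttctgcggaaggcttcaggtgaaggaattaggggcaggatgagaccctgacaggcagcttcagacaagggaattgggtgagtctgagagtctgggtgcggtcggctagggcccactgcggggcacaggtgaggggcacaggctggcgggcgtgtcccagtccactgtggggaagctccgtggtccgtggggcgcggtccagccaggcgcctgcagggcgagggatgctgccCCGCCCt
Lgals9: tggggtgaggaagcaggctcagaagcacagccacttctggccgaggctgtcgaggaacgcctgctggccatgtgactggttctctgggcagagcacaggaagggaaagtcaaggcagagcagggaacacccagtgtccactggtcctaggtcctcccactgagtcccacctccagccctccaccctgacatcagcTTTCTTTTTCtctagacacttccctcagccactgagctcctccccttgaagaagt
The *Lgals3* match is a GC box on the opposite strand, with its first base 7 bases before the start. The *Lgals9* match is the interferon element core on the opposite strand, with its first base 55 bases before the start. The letters of the 5 motifs were not found in the *Lgals3bp* window or in the *Lgals8* window inside that gene.

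*Lgals3* was highest in the big cells of the outgrowth, and on 2 of 3 untreated arrays it was below the median of all values. In untreated cells its signal was 3.05 in lymphoma 4146, 3.44 in 4936 and 5.63 in 5043 (mean 4.04 ± 1.39, SD, n = 3). In big outgrowth cells it was 9.72, 12.41 and 9.48 in the same order of lymphomas (10.54 ± 1.63, SD, n = 3). The groups did not overlap, which held in this direction for 13.1% of all genes tested. The difference was 6.49 (SE 0.81, 95% confidence interval 4.71 to 8.28), and it was 6.67, 8.97 and 3.84 within the 3 lymphomas. It passed with an adjusted p of 0.0141 (limma with Benjamini-Hochberg adjustment) and was the largest rise of the 11897 genes tested on the deposited values. With values below 4.86 set to it, the difference was 5.42, or 42.9-fold as an average over the lymphomas (adjusted p = 0.0109, limma). This setting gave 2 of 3 untreated arrays the same value and removed the spread between them, so its p is not separate evidence. In that setting the *Lgals3* difference ranked 3 behind *Bgn* (5.59) and *Fn1* (5.55).

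*Lgals3* was the 1 gene of the 5 that passed in this comparison, where 0.412% of all genes tested passed in either direction and 0.286% were higher. Without the 3 arrays that stood apart the difference was 7.36 (adjusted p = 0.0159, limma with Benjamini-Hochberg adjustment). The call was lost in 4 of 20 fits that left out 1 lymphoma or 1 array: without lymphoma 4146 (6.41, adjusted p = 0.440), lymphoma 5043 (7.82, adjusted p = 0.0532), the untreated array of 4146 (6.07, adjusted p = 0.0978) or that of 4936 (5.98, adjusted p = 0.0644), by the same limma fit. It held without lymphoma 4936 (5.26, adjusted p = 0.0450), the big array of 4936 (5.51, adjusted p = 0.0368) or of 5043 (7.19, adjusted p = 0.00925) and the untreated array of 5043 (7.46, adjusted p = 0.00799, limma), where the fold moved by over 1.5 times. It was also lost when the arrays of the 2 groups were fitted alone (adjusted p = 0.207, limma).

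**Figure D1:**
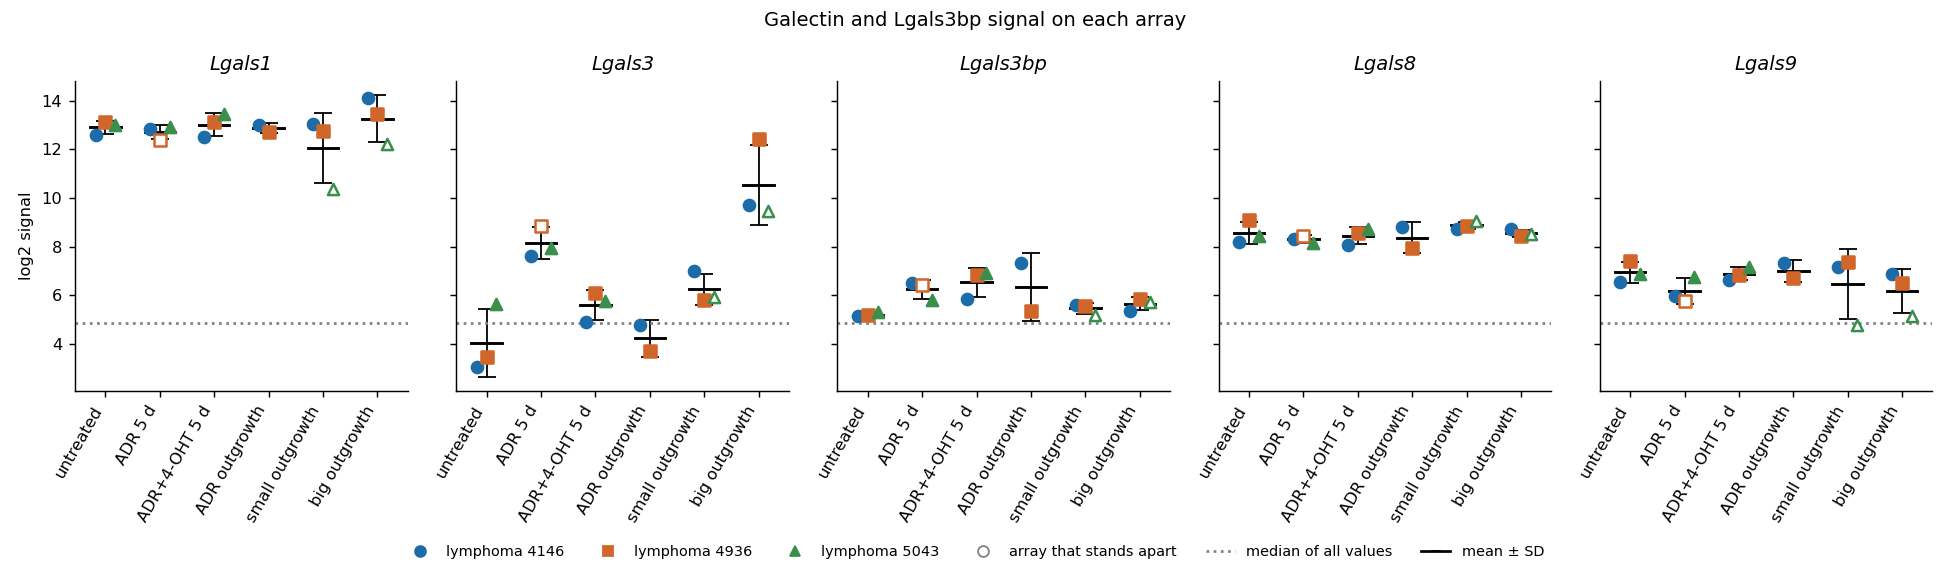
The log2 signal of each of the 5 genes on every array, by group, with a marker shape and colour for each lymphoma, open markers for the 3 arrays that stood apart, bars for the mean ± SD and a dotted line at the median of all values, 4.86. *Lgals3* runs from 3.05 to 12.41, and the lowest *Lgals1* and *Lgals9* points are the small outgrowth of lymphoma 5043, at 10.38 and 4.78.

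Big cells were also set against ADR+4-OHT 5 d, the treated cells before the 14 days without drug. Cells at the end of ADR and 4-OHT had *Lgals3* signals of 4.89, 6.08 and 5.77 (5.58 ± 0.62, SD, n = 3), all below the big cells. The big cells were higher by 4.96 (SE 0.81, adjusted p = 0.0220, limma with Benjamini-Hochberg adjustment), a 31.0-fold difference, with 4.83, 6.33 and 3.71 within the lymphomas. In this comparison 4.02% of all genes passed, 2% with a higher signal, and 16% had groups that did not overlap in this direction, and *Lgals3* was again the 1 gene of the 5 to pass. Its difference was the second largest rise. It was 5.82 without the 3 arrays that stood apart (adjusted p = 0.0396) and 5.68 without these and the ADR+4-OHT array of 4146, where the call was lost (adjusted p = 0.0625, limma). Of 20 leave-out fits, 6 ended the call: without lymphoma 4146, 4936 or 5043 (adjusted p = 0.134, 0.0585 and 0.140), without the ADR+4-OHT array of 4936 or 5043 (0.0803 and 0.0770), and without the big array of 4936 (0.0697, with a difference of 3.97). Without the big array of 5043 the difference was 5.65 (adjusted p = 0.0306, limma). Fitting the arrays of the 2 groups alone ended it as well (adjusted p = 0.120, limma).

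The small cells of the same outgrowths had lower *Lgals3* signals than the big cells in every lymphoma. They were at 6.98, 5.79 and 5.94 (6.24 ± 0.65, SD, n = 3), and the groups did not overlap, as for 8.99% of all genes in this direction. The difference of big from small cells was 4.30 (SE 0.81), with 2.74, 6.63 and 3.54 within the lymphomas. It did not pass (adjusted p = 0.0904, limma with Benjamini-Hochberg adjustment), in a comparison where 0% of genes passed and 1243 had an unadjusted p under 0.05. Of all genes tested, 2 had a larger rise. The same difference passed in a fit without the lymphoma block (adjusted p = 0.0446) and in one with all values below 4.86 set to it (adjusted p = 0.0443, limma), where it was the largest rise. No big or small array was below 4.86, so the second setting left their *Lgals3* values and the difference of 4.30 as they were. The fit without the block does not count the offsets between lymphomas that had been removed before deposit. Neither pass is separate evidence for the difference. The small cells themselves were 2.19 above untreated cells (SE 0.81, adjusted p = 0.565, limma; 1.12 with low values set to 4.86), with 3.93, 2.35 and 0.30 within the lymphomas. Leave-out fits gave 1.33 (without lymphoma 4146) to 3.16 (without the untreated array of 5043). These groups did not overlap, as for 9.1% of genes in this direction, and 0% of genes passed.

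At 5 days, *Lgals3* signals were higher on every array of ADR alone than on any array of ADR with 4-OHT. ADR-treated cells were at 7.62, 8.86 and 7.95 (8.14 ± 0.64, SD, n = 3), above all untreated arrays and above all arrays with 4-OHT. The difference from untreated cells was 4.10 (SE 0.81, with 4.57, 5.42 and 2.31 within lymphomas), and 8.16-fold on average with low values set to 4.86. It did not pass (adjusted p = 0.239, unadjusted p = 0.00033, limma with Benjamini-Hochberg adjustment), in a comparison where 0% of genes passed and 1348 had an unadjusted p under 0.05. Groups that did not overlap in this direction were found for 11.8% of genes. Without the 3 arrays that stood apart, among them the highest ADR array, it was 3.65 (adjusted p = 0.889, limma).

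Cells given 4-OHT with ADR had *Lgals3* signals that differed by -2.56 from cells given ADR alone (SE 0.81; -2.73, -2.78 and -2.17 within lymphomas). The groups did not overlap, as for 13.5% of genes in this direction. The difference did not pass (adjusted p = 0.256, unadjusted p = 0.00885, limma with Benjamini-Hochberg adjustment), and 0% of genes did, while 1490 had an unadjusted p under 0.05. Against untreated cells, the cells given both drugs were 1.54 higher (SE 0.81, adjusted p = 0.336, limma; 0.47 with low values set to 4.86), and their groups overlapped. In that comparison 2.94% of all genes passed and none of the 5 genes described here did.

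After 14 days without drug, the cultures that had received ADR alone had *Lgals3* signals that overlapped the untreated ones. The ADR outgrowths of lymphomas 4146 and 4936 had *Lgals3* signals of 4.77 and 3.69 (4.23 ± 0.76, SD, n = 2), both below the median of all values. They were 1.72 and 0.25 above the untreated array of the same lymphoma. The fitted difference, which also uses the untreated array of 5043, was 0.21 (SE 0.93, adjusted p = 1, limma), 0.98 without lymphoma 5043 and -0.34 with low values set to 4.86. Its sign turned in 4 leave-out fits, which ranged from -1.03 to 1.18. In lymphomas 4146 and 4936, small cells were 2.21 and 2.10 above the ADR outgrowth, a fitted difference of 1.98 (SE 0.93, adjusted p = 0.385, limma) and of 1.46 with low values set to 4.86. These groups did not overlap, as for 15.8% of genes in this direction. In both comparisons 0% of genes passed, with 534 and 1598 genes at an unadjusted p under 0.05. In order of mean, the *Lgals3* groups ran from big cells through ADR 5 d, small cells, ADR+4-OHT 5 d and ADR outgrowth to untreated cells. Small cells overlapped ADR+4-OHT 5 d, and ADR outgrowth overlapped untreated cells.

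**Figure D2:**
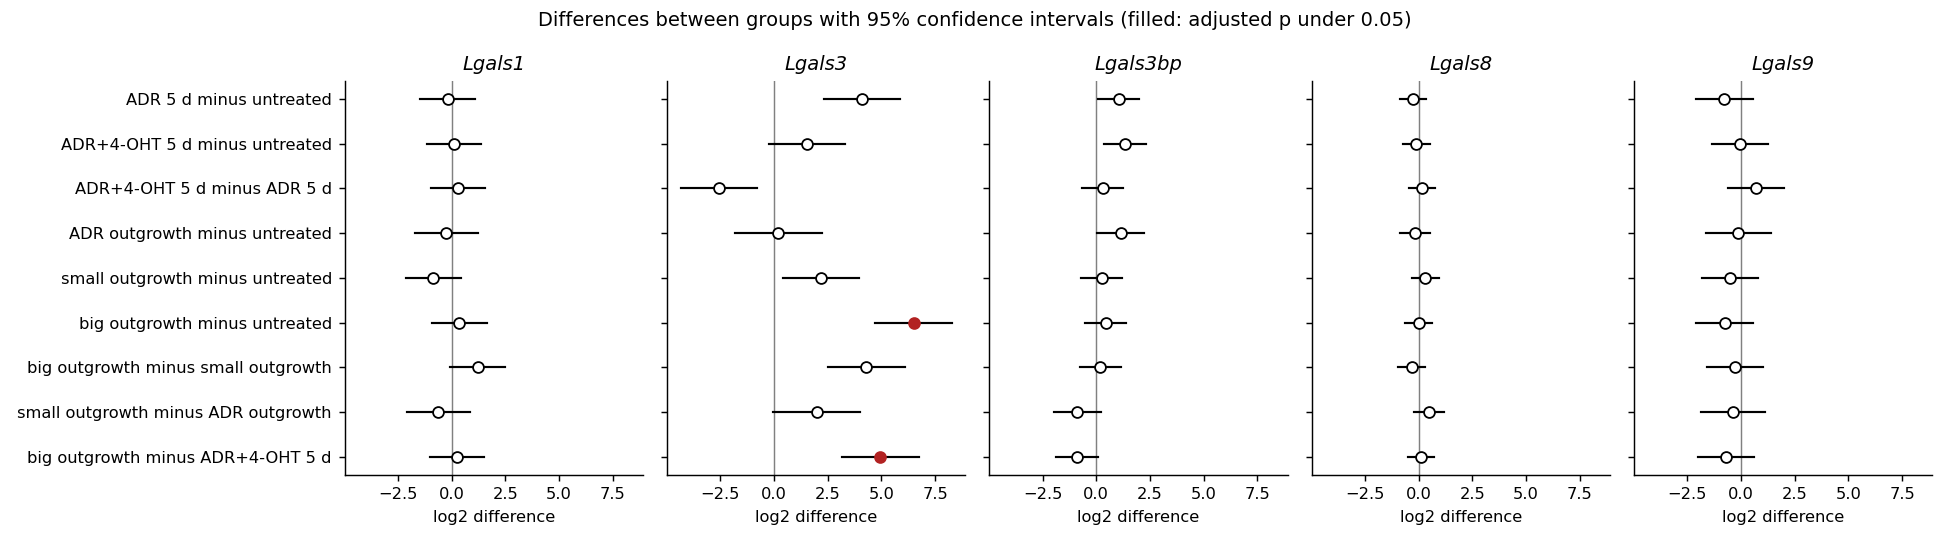
The log2 difference of each of the 5 genes in each of the 9 comparisons, with its 95% confidence interval from the limma fit over all arrays. The filled points, *Lgals3* in big outgrowth cells against untreated cells (6.49) and against ADR+4-OHT 5 d (4.96), are the 2 with an adjusted p under 0.05.

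*Lgals3bp*, the secreted ligand of galectin-3 and a gene induced by interferon, had signals in a narrow range in untreated cells and higher ones at 5 days. Untreated cells were at 5.13, 5.19 and 5.30 (5.20 ± 0.08, SD, n = 3). Cells given ADR were at 6.52, 6.40 and 5.80, and cells given ADR and 4-OHT at 5.85, 6.84 and 6.93 (6.54 ± 0.60, SD, n = 3). Neither group overlapped the untreated arrays, as for 11.8% of genes in this direction after ADR and 15.2% after ADR and 4-OHT. The difference from untreated cells was 1.34 with both drugs (SE 0.44; 0.72, 1.66 and 1.63 within lymphomas) and 1.04 with ADR alone (SE 0.44). Neither passed (adjusted p = 0.122 and 0.425, unadjusted p = 0.0109 and 0.0373, limma with Benjamini-Hochberg adjustment). The larger difference passed in 3 of 20 leave-out fits: without the ADR+4-OHT array of 4146 (1.79, adjusted p = 0.0457) and without either ADR outgrowth array (adjusted p = 0.0306 each, limma).

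In the outgrowths, *Lgals3bp* was nearer to the untreated level in the sorted cells. Big cells were at 5.34, 5.86 and 5.72 and small cells at 5.59, 5.57 and 5.20, ranges that overlapped each other. Small cells also overlapped the untreated arrays. Big cells lay above all untreated arrays, as for 13.1% of genes in this direction, and did not pass (adjusted p = 0.643, limma). The ADR outgrowths parted, with 7.34 in lymphoma 4146 and 5.36 in 4936. The fitted difference from untreated cells was 1.13 (SE 0.50, adjusted p = 0.999, limma), and without the array of 4146 it was -0.0064.

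*Lgals1* was well above the median of all values on every array, between 10.38 and 14.14. Untreated cells were at 12.61, 13.12 and 13.01. ADR-treated cells were at 12.86, 12.38 and 12.93, cells with both drugs at 12.52, 13.12 and 13.44, and the ADR outgrowths at 13.01 and 12.73. These 4 groups overlapped. Big cells were at 14.14, 13.45 and 12.23 and small cells at 13.03, 12.75 and 10.38, and the lowest values of both groups came from the 2 arrays of lymphoma 5043 that stood apart. Big cells were higher than small cells in 3 of 3 lymphomas (1.11, 0.70 and 1.84), a difference of 1.22 (SE 0.58) that did not pass (adjusted p = 0.497, limma with Benjamini-Hochberg adjustment). It was 0.90 without the 3 arrays that stood apart (adjusted p = 0.423) and 0.42 without the small outgrowth array of 5043 alone (adjusted p = 0.806, limma). The second *Lgals1* probe set had a correlation of 0.992 with the chosen one over the 17 arrays and a difference of 1.44 between big and small cells.

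*Lgals9*, the ligand of Tim-3 and CD45, was at 6.55, 7.41 and 6.86 in untreated cells. It was at 5.96, 5.78 and 6.77 after ADR, lower in 3 of 3 lymphomas, and the groups overlapped. The difference was -0.77 (SE 0.60, adjusted p = 0.617, limma with Benjamini-Hochberg adjustment), and -0.61 without the 3 arrays that stood apart. With both drugs the signals were 6.65, 6.84 and 7.16, and in the ADR outgrowths 7.33 and 6.70. Small cells were at 7.17, 7.37 and 4.78 and big cells at 6.89, 6.50 and 5.14. The values of 4.78 and 5.14 came from the same arrays of lymphoma 5043 that stood apart, and the other small and big cells lay within 6.50 to 7.37.

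*Lgals8*, which marks damaged vesicles for autophagy, had the narrowest range of the 5 genes, from 7.93 to 9.08. Its largest difference was between small cells and the ADR outgrowth (0.49, SE 0.32, adjusted p = 0.520, limma with Benjamini-Hochberg adjustment), and its sign turned when the 4936 array of the ADR outgrowth was left out (-0.10) or all arrays of lymphoma 4936 (-0.03). Its second probe set had a correlation of 0.899 with the chosen one. In a test of any difference among the 6 groups, *Lgals3* passed (F = 17.5, adjusted p = 0.0300, limma with Benjamini-Hochberg adjustment), as did 2.63% of all genes. The adjusted p was 0.212 for *Lgals3bp*, 0.614 for *Lgals1*, 0.636 for *Lgals8* and 0.760 for *Lgals9* (limma). Leaving out any 1 of the 3 lymphomas brought the count of the 5 genes that passed to 0. So did leaving out the arrays of 4146 other than ADR+4-OHT and ADR outgrowth, the ADR+4-OHT and big arrays of 4936, the ADR, ADR+4-OHT and small arrays of 5043, or all 3 arrays that stood apart.

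Other members of the family gave no called difference. Of 6 further family genes with a named probe set, *Lgals2*, *Lgals4*, *Lgals7*, *Lgals12* and *Lgalsl* were tested, and *Grifin*, a lens protein of the family, reached 4.86 on 0 arrays. The lowest adjusted p over the 9 comparisons was 0.243, for *Lgals4* (limma with Benjamini-Hochberg adjustment). The *Lgals4* means were 6.95 ± 0.35 (SD, n = 3) in small cells, 6.94 ± 0.30 (SD, n = 3) in big cells and 5.62 ± 0.90 (SD, n = 2) in the ADR outgrowth. Over the 10 tested genes of the family list, *Lgals3bp* and the other 4 genes included, the median difference of big from untreated cells was 0.23, and over all genes it was -0.04.

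**Figure D3:**
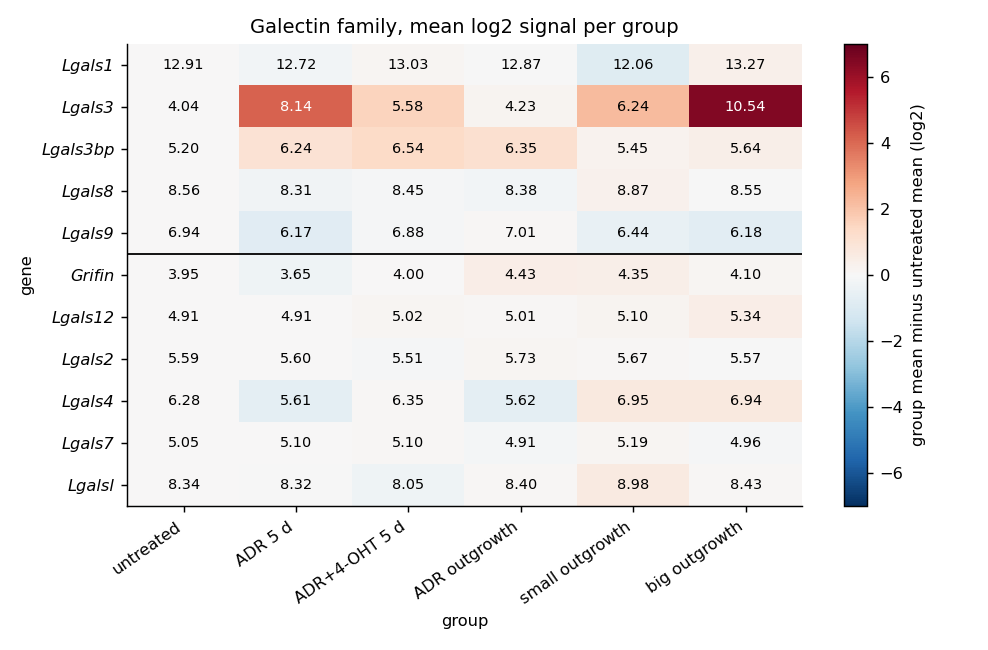
Mean log2 signal of the galectin family and *Lgals3bp* in each group (numbers in the cells), coloured by the difference from the untreated mean. *Lgals3* spans 4.04 to 10.54, and *Lgals8* spans 8.31 to 8.87.

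Galectins act through the glycans they bind, the proteins that carry them and, in the cell, the handling of damaged lysosomes. Of 24 tested glycoproteins and other partners that galectins bind, 1 rose in big cells against untreated cells, where 0.412% of all genes passed. This was *Fn1* (fibronectin), by 5.55 (SE 0.64, adjusted p = 0.0134, limma with Benjamini-Hochberg adjustment). It was also 4.01 higher than in ADR+4-OHT 5 d (adjusted p = 0.0220, limma), where 4.02% of all genes passed. The median of the 24 was 0.35 against untreated cells, beside -0.04 for all genes. In ADR+4-OHT 5 d against untreated cells, *Lamp1*, a lysosomal membrane glycoprotein, rose by 1.23 (adjusted p = 0.0245, limma). It was 1 of the 24 there, where 2.94% of all genes passed.

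Of 17 tested enzymes and transporters that build galectin ligands, 0 passed in big against untreated cells, with a median of -0.00. Against ADR+4-OHT 5 d, 2 were higher and 1 was lower, where 4.02% of all genes passed. *St3gal1*, a sialyltransferase that caps core 1 O-glycans, was higher by 1.83 (adjusted p = 0.0492). *Mgat1*, which starts complex N-glycans, was higher by 0.74 (adjusted p = 0.0405). *C1galt1c1*, the chaperone of the core 1 synthase, fell by 1.05 (adjusted p = 0.0220, all limma with Benjamini-Hochberg adjustment). *Gcnt1* (1.56, adjusted p = 0.557) and *St3gal1* (1.19, adjusted p = 0.244) had the largest differences of the list in big against untreated cells.

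Of 17 tested genes of the response to damaged lysosomes, 0 passed in big against untreated cells. There the largest differences were those of *Sqstm1*, which encodes the autophagy receptor p62 (1.21, adjusted p = 0.164), and *Map3k7*, which encodes the kinase TAK1 (-1.19, adjusted p = 0.0519, limma). Against ADR+4-OHT 5 d, where 4.02% of all genes passed, 2 of the 17 fell in big cells, *Map3k7* (-1.62, adjusted p = 0.0181) and *Usp9x*, a deubiquitinase (-0.81, adjusted p = 0.0429), and the list's median was -0.47, beside -0.01 for all genes. *Map1lc3b*, which encodes the autophagosome protein LC3B, rose by 0.85 in ADR+4-OHT 5 d against untreated cells (adjusted p = 0.0374, limma with Benjamini-Hochberg adjustment). It was 1 of the 17 there, where 2.94% of all genes passed.

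Interferon response genes were counted because *Lgals3bp* and *Lgals9* are known interferon targets. In ADR+4-OHT 5 d against untreated cells, where *Lgals3bp* had its largest difference, 2 of 19 rose, *Rsad2*, the antiviral enzyme viperin (2.09, adjusted p = 0.0191), and *Ifi35* (0.98, adjusted p = 0.0493, limma with Benjamini-Hochberg adjustment), where 2.94% of all genes passed. The median of the 19 was 0.98, beside 0.00 for all genes. In big against untreated cells, 0 of 19 passed, with a median of 0.06. Against ADR+4-OHT 5 d, where 4.02% of all genes passed, 1 of 19 fell in big cells. This was *Rsad2*, by 1.96 (adjusted p = 0.0253, limma), and the median was -0.59.

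Fibroblast markers were higher on the arrays where *Lgals3* was high. The mean signal of 16 fibroblast markers was 4.34 to 4.68 in untreated cells, 5.24 to 6.32 in ADR 5 d, 4.45 to 5.06 in ADR+4-OHT 5 d, 4.23 to 4.49 in ADR outgrowth, 4.73 to 5.20 in small cells and 5.90 to 7.15 in big cells. Of the 10 tested, 5 rose in big against untreated cells, among them *Bgn* (biglycan, 5.61, adjusted p = 0.0134), *Col1a2* (a collagen I chain, 4.70, adjusted p = 0.0324) and *Dcn* (decorin, 3.73, adjusted p = 0.0424, limma with Benjamini-Hochberg adjustment), and 7 rose against ADR+4-OHT 5 d, where 0.412% and 4.02% of all genes passed. On the big arrays 10 to 12 of the 16 were at or above 4.86. *Pdgfrb* and *Postn* were below it on 3 of 3 big arrays, and *Col1a1*, *Lum* and *Thy1* on 2 of 3. The part of fibroblast RNA in the *Lgals3* differences was not tested.

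Macrophage markers, which galectin-3 often accompanies, followed another order of groups. The mean signal of 17 macrophage markers was 4.87 to 5.33 in untreated cells, 5.80 to 7.82 in ADR 5 d, 6.07 to 6.80 in ADR+4-OHT 5 d, 5.52 to 6.26 in ADR outgrowth, 4.86 to 5.50 in small cells and 5.70 to 6.36 in big cells. Of the 11 tested, 0 passed in big against untreated cells and 0 against ADR+4-OHT 5 d, where 0.412% and 4.02% of all genes passed. In ADR+4-OHT 5 d against untreated cells 1 rose, *Lyz2* (lysozyme, 5.87, adjusted p = 0.0272, limma with Benjamini-Hochberg adjustment), where 2.94% of all genes passed. Against untreated cells, the median of the 11 was 1.34 in big cells, 2.17 in ADR 5 d and 1.64 in ADR+4-OHT 5 d, beside -0.04, 0.02 and 0.00 for all genes. It was -0.20 in big cells against ADR+4-OHT 5 d. On the big arrays 8 to 12 of the 17 were at or above 4.86, and *C1qa*, *C1qb*, *C1qc*, *Mrc1* and *Marco* were below it on 3 of 3. The part of macrophage RNA in the *Lgals3* differences was not tested. Of 6 tested T cell and 3 tested endothelial markers, 0 passed in any of the 9 comparisons, and the mean signals per array were 3.97 to 5.47 and 4.19 to 4.45.

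**Figure D4:**
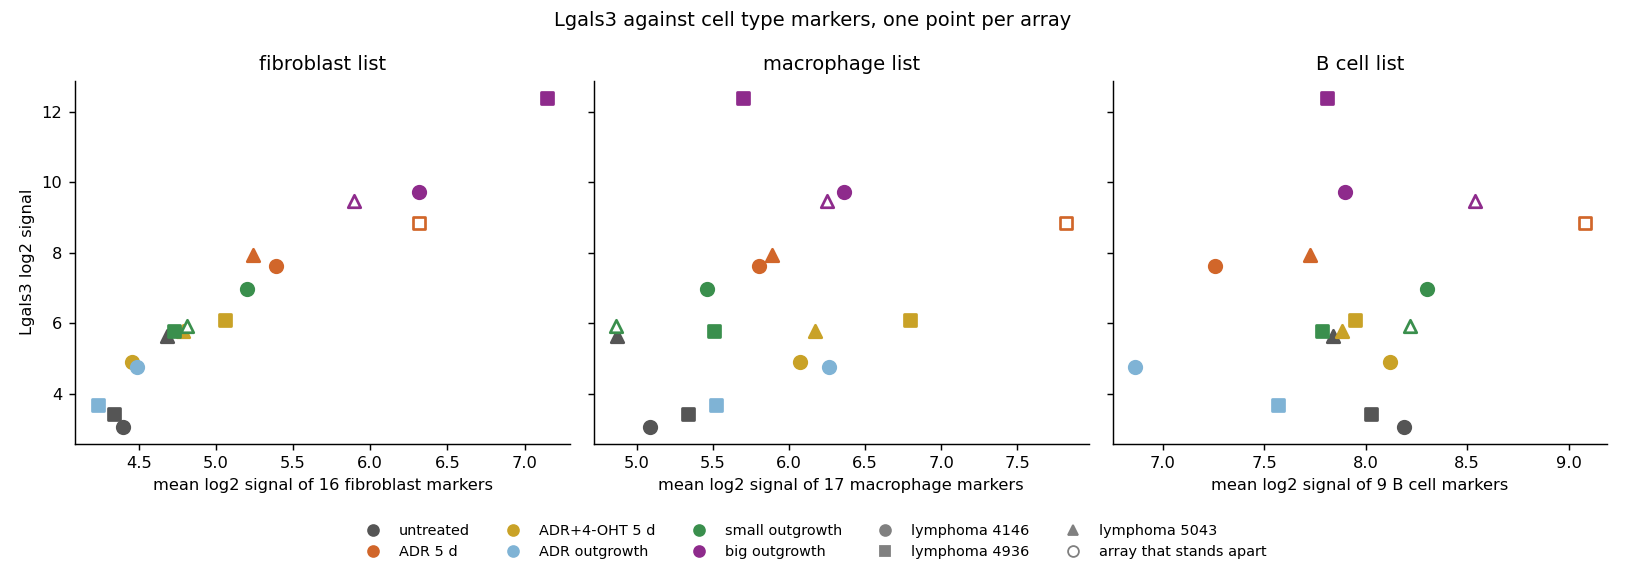
The *Lgals3* log2 signal of each array against the mean log2 signal of 16 fibroblast, 17 macrophage and 9 B cell markers, with colours for groups, shapes for lymphomas and open markers for the 3 arrays that stood apart. The 3 big arrays lie between 5.90 and 7.15 on the fibroblast axis, and the highest macrophage mean, 7.82, belongs to ADR 5 d of lymphoma 4936.

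The genes whose signals most resembled each of the 5 were named by Pearson correlation over the 17 arrays after subtracting each lymphoma's mean, as a description in which the arrays share lymphomas and the 3 that stood apart. For *Lgals3* they were *Bgn* (0.990), *Rpl39l*, a ribosomal protein paralogue (0.987), and *Cpe*, carboxypeptidase E (0.985). For *Lgals3bp* they were *Icam1*, an adhesion molecule (0.878), *Plekho2* (0.869) and *Mllt11* (0.830). For *Lgals1* they were *Septin9* (0.915), *Emp3* (0.882) and *Psrc1* (0.873), for *Lgals9* *Nxpe3* (0.913), *Pag1* (0.903) and *Aldh1b1* (0.903), and for *Lgals8* *Atf6* (0.898), *Samhd1* (0.865) and *Map3k1* (0.861). Among the 5 genes themselves, *Lgals1* and *Lgals9* had a correlation of 0.698, and both were at their lowest on the small outgrowth array of lymphoma 5043, and the other pairs lay between -0.33 and 0.27.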

How the data were processed

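Total RNA from 18 samples was hybridised to Affymetrix mouse arrays (45101 probe sets). Log2 signals are as deposited, made with RMA and Partek per the submitters' processing notes; versions and order are not given in the sources used here. For lymphoma 5043 the ADR outgrowth array was without values, which left 17 arrays. All 45101 probe sets had the same median in each lymphoma (tolerance 1e-06), so offsets between lymphomas were removed before deposit, a step the labels do not state. There is no sequencing depth on arrays. The precision depends on their number, on the spread between them and, for low signals, on the background.

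Probe sets with 1 gene symbol (34958) were kept, 1 per gene by highest mean. Genes with a value of at least 4.86 in at least 3 arrays were tested with limma 3.58.1 in R 4.3.3, with terms for the 6 groups and for lymphoma (9 residual and 2.53 prior degrees of freedom) and Benjamini-Hochberg adjustment over genes at 0.05. The fit was also run on simulated data with independent noise on each array. These data held no shared shift like that of the arrays that stood apart, so the run cannot show how the fit handles such arrays. The pairing within lymphomas comes from the labels, and levels of the lymphomas could not be compared on centred values. *Xist* lay far from the median of its lymphoma on 4 arrays. Whether these arrays share a lymphoma with the others of their label was not tested. Differences within lymphomas use them as labelled. Replicates are separate lymphomas.

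The 5 genes, the lists (family, ligand synthesis, partners, lysosome response, interferon, markers of 5 cell types) and the tests were chosen with earlier results of these data known. Named genes were the 5, up to 3 passing members per list with the largest change (otherwise the 2 largest) and the 3 closest by correlation per gene. *Xist*, leaving out the arrays that stood apart and setting values below 4.86 to it were chosen after seeing the data.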

Additional observations from a re-analysis of the deposited data

How the results depend on the processing

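Of 449 alternative values for the 15 differences given for the 5 genes, 423 kept their direction and side of the threshold and 8 turned sign. The turned values were those of *Lgals3* in ADR outgrowth against untreated cells (-1.03 without lymphoma 4146, -0.25 and -0.36 without the untreated array of 4146 or 4936, -0.76 without the ADR outgrowth array of 4146, highest 1.18, and -0.34 with values below 4.86 set to it), *Lgals3bp* in the same comparison (-0.0064 without the ADR outgrowth array of 4146, highest 2.26), and *Lgals8* in small cells against ADR outgrowth (-0.10 without the ADR outgrowth array of 4936, -0.03 without lymphoma 4936, highest 1.08). No filter on low values, a filter at the 60th percentile and quantile normalisation changed none of the calls given. For the other 30 differences of the 5 genes, 78 of 900 alternative values turned sign and 0 passed. The cause of the following changes was not tested, except that leaving out arrays lowers their number. Counts are of genes passing (limma with Benjamini-Hochberg adjustment), first as reported and then under the alternative, or under the alternative alone.

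Without the replicate block for lymphoma, the counts were 0 and 1 in ADR 5 d against untreated, 350 and 623 in ADR+4-OHT 5 d against untreated, 0 and 13 in ADR+4-OHT 5 d against ADR 5 d, 0 and 1 in small against untreated, 49 and 112 in big against untreated, 0 and 30 in big against small (with 1 of the 5 genes, *Lgals3*), 478 and 920 in big against ADR+4-OHT 5 d, and 313 and 1157 in the test of any difference. With the compared arrays alone they were 1 in ADR 5 d against untreated, 0 in ADR+4-OHT 5 d against untreated, 6 in big against small, and 0, with 0 of the 5 genes, in big against untreated and against ADR+4-OHT 5 d. When a gene's probe sets were averaged, 212 genes passed in ADR+4-OHT 5 d against untreated and 1 against ADR 5 d. With every probe set on its own, 1 passed in ADR+4-OHT 5 d against ADR 5 d, 165 in big against untreated, 66 in big against small and 687 in the test of any difference.

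Without the 3 arrays that stood apart, 3 passed in big against small, 48 in big against ADR+4-OHT 5 d and 9, with 0 of the 5 genes, in the test of any difference. Without these and the ADR+4-OHT array of 4146, 794 passed in ADR+4-OHT 5 d against untreated, 2 in big against small, 39 (0 of the 5 genes) in big against ADR+4-OHT 5 d and 35 (0 of the 5 genes) in the test of any difference. With values below 4.86 set to it, 19 passed in big against untreated and 18, with 1 of the 5 genes (*Lgals3*), in big against small. Over the 20 fits that left out 1 lymphoma or 1 array, the counts ranged from 0 to 3 in ADR 5 d, 0 to 546 in ADR+4-OHT 5 d, 0 to 0 in ADR outgrowth and in small, and 0 to 280 in big against untreated, 0 to 19 in ADR+4-OHT 5 d against ADR 5 d, 0 to 25 in big against small, 0 to 1 in small against ADR outgrowth, 0 to 799 in big against ADR+4-OHT 5 d and 0 to 1254 in the test of any difference. Of the 5 genes, 0 to 1 passed in ADR+4-OHT 5 d against untreated, in big against untreated and in big against ADR+4-OHT 5 d, 0 to 2 in the test of any difference, and 0 to 0 in the other comparisons. Of the 17 *Lgals3* values, 4 were below 4.86, which is the median of all values and not a measured background. The signals are centred within each lymphoma, so whether a value lies below 4.86 depends in part on that centring. How near these 4 values were to the background was not tested.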

Other observations

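The *Lgals3* difference between cultures with and without 4-OHT was set side by side at 5 days and in the outgrowths. At 5 days, cells given 4-OHT with ADR differed by -2.56 log2 units from cells given ADR alone (5.58 ± 0.62 and 8.14 ± 0.64, SD, n = 3 each). After 14 days, small cells of the 4-OHT outgrowth were above the ADR outgrowth (6.24 ± 0.65, SD, n = 3, and 4.23 ± 0.76, SD, n = 2), and big cells were further above it (10.54 ± 1.63, SD, n = 3). Between 5 days and outgrowth, the change in this difference was 4.54 for small cells (SE 1.24, unadjusted p = 0.00337, adjusted p = 0.308). For big cells it was 8.85 (SE 1.24, unadjusted p = 1.43e-05, adjusted p = 0.0516, both limma with Benjamini-Hochberg adjustment). Neither passed, in a test where 0 genes passed for small cells and 0.0168% of genes for big cells. Both ADR outgrowth arrays were below 4.86. With values below 4.86 set to it, the change was 4.03 for small cells (SE 0.96, adjusted p = 0.261, limma). For big cells it was 8.33 (SE 0.96) and passed (adjusted p = 0.0202, limma with Benjamini-Hochberg adjustment). In that fit 5 of all 11897 genes tested passed. The setting gave both ADR outgrowth arrays the same value and removed the spread between them, so this pass is not separate evidence. This comparison was added after the data were seen. Big and small cells were sorted by size while the ADR outgrowth was not, so sorting and 4-OHT cannot be told apart here.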
